A study of Saccharomyces cerevisiae with 12 samples.

Results

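The genes described here are 10 genes of the yeast mating system, chosen by name from 7126 genes in the expression table. MFA1 (YDR461W), MFA2 (YNL145W), STE2 (YFL026W), STE6 (YKL209C) and BAR1 (YIL015W) are a-specific, MF(ALPHA)1 (YPL187W), MF(ALPHA)2 (YGL089C) and STE3 (YKL178C) are α-specific, and FUS1 (YCL027W) and FIG1 (YBR040W) are induced by mating pheromone. All 10 had a mean of at least 1 FPKM (a fragment count relative to the length of the transcript and the size of the library) over the libraries and were tested among 6572 genes that met this limit.

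RNA was sequenced from mid-exponential Saccharomyces cerevisiae cells that had been passaged in rich medium (YPD) for 500 or 50 generations, written 500G and 50G. Every library came from strain background MHY1379, in which the chromosomal ULP2 gene, encoding a protease that cleaves SUMO chains, is replaced by HIS3. The groups were ulp2 null cells with the empty plasmid YCplac33 at 500G, the same null cells at 50G, cells carrying ULP2 on YCplac33 (called WT) at 500G, and these WT cells at 50G. Each of the 4 groups held 3 libraries, whose labels do not say whether they came from separately passaged cultures, so the p-values measure the spread between these libraries only. The labels give the strain background and do not state its mating type.

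Haploid yeast cells are of mating type a or α. The MAT locus sets which set of genes is on: α cells make the α1 protein, which activates α-specific genes, and the α2 protein, which together with Mcm1 binds an operator upstream of a-specific genes and represses them, whereas a cells lack both proteins, so that Mcm1 alone works at the same sites and a-specific genes are expressed. Each cell type secretes a peptide pheromone and carries a receptor for the pheromone of the other type, and receptor signalling through a MAP kinase cascade activates the transcription factor Ste12, which binds the pheromone response element TGAAACA in the promoters of its targets.

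The 5 a-specific genes are shown with their operator because all 5 hold a match and none of the other 5 does. The sequences are 30 bases of the R64 reference, 5′ to 3′ on the strand that holds the match (the strand of the gene, except for STE2), with the fixed bases of the searched pattern in capitals, which are TGT, then TTACC after any 2 bases, then GG after any 6 bases.
MFA1: gTGTaaTTACCcaaaaaGGaaatttacatg
MFA2: aTGTatTTACCtattcgGGaaatttacatg
STE2: aTGTacTTACCcaattaGGaaatttacatg
STE6: aTGTaaTTACCtaatagGGaaatttacacg
BAR1: aTGTaaTTACCgtaaaaGGaaattacatgg
The stretches lie at chrIV:1384943-1384972 on the plus strand for MFA1, chrXIV:352164-352193 on the plus strand for MFA2, chrVI:82351-82380 on the minus strand for STE2, chrXI:46477-46506 on the minus strand for STE6 and chrIX:322079-322108 on the plus strand for BAR1. The pattern was written after these promoters had been viewed, so its presence in them is a description. Searched on both strands in the 500 bases before the start codon, it occurred in 10 of 6000 promoters (0.167%), which were those of the 5 a-specific genes above, AGA2, GYP8, OCA4, PEX25 and YCR095W-A. ASG7, which is also a-specific, had no match. None of the promoters of the α-specific or pheromone-induced genes held it. TGAAACA occurred in 721 of the 6000 promoters (12.02%) and in 7 of the 10 here, with no match in MF(ALPHA)1, STE3 and FIG1, and no match of either pattern overlapped a match of the other in the genes listed.

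All 12 libraries had the transcripts of a cells. HMRA1, the annotated gene for the a1 protein, was at 951 to 1157 FPKM in null 500G, 563 to 757 FPKM in null 50G, 1046 to 1500 FPKM in WT 500G and 647 to 802 FPKM in WT 50G libraries, while MATALPHA1 and HMLALPHA1, the copies of the α1 gene, stayed at or below 1.17 FPKM throughout. The R64 reference carries α information at MAT, so a1 transcripts from MAT and from the silent cassette HMR cannot be told apart. Every 45-base stretch of MATALPHA1, MATALPHA2, HMLALPHA1, HMLALPHA2 and HMRA2 occurs more than once in the genome, which leaves their levels uncertain: the α2 genes and HMRA2, which shares the end of the α2 sequence, were nevertheless listed at 114 to 271 FPKM. As a check of the labels, ULP2 was at or below 0.995 FPKM in the 6 null libraries and at 162 to 217 FPKM in the 6 WT libraries. TRP1 separated the strains as well, at 0.384 FPKM or less in null and 36.3 to 44.8 FPKM in WT libraries, so an effect of ULP2 and of any other difference between these strains cannot be told apart. Summed FPKM was 1365930 to 1539386 in the 6 libraries at 500G and 1083961 to 1198357 in the 6 at 50G. The files give FPKM only, so the depth of each library is unknown here.

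**Figure D1:**
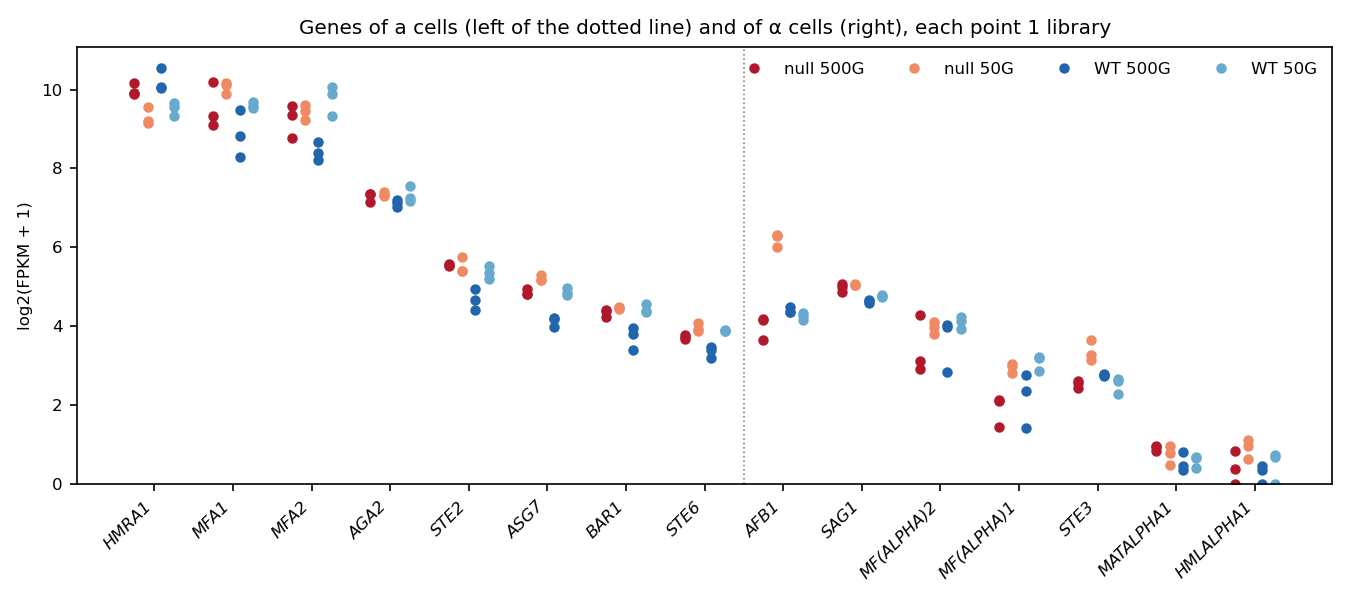
Level of the genes of a cells (left of the dotted line) and of α cells (right) on a log2(FPKM + 1) axis, with each point 1 of the 12 libraries coloured by group. HMRA1, MFA1 and MFA2 lie highest, and MATALPHA1 and HMLALPHA1 stay at or below 1.17 FPKM in every library. The sequences of these α1 genes occur more than once in the genome, which leaves their levels uncertain. The α2 genes MATALPHA2 and HMLALPHA2, whose sequences also occur more than once, are not drawn. They were listed at 114 to 205 FPKM and 122 to 193 FPKM.

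MFA1 and MFA2 encode the precursors of a-factor, the lipid-modified pheromone of a cells, and were by far the most abundant transcripts of the 10 on the per-length FPKM scale. MFA1 ranked between 127 and 653 of 7126 genes over the libraries (median rank 223) and MFA2 between 154 and 751 (median rank 292). MFA1 was at 1165, 550 and 647 FPKM in null 500G, 943, 1158 and 1116 FPKM in null 50G, 452, 715 and 315 FPKM in WT 500G and 742, 770 and 829 FPKM in WT 50G libraries. The 3 WT 500G libraries lay below all WT 50G libraries, and the 3 null 50G libraries above them, but the null 500G libraries ran across the range of the other groups. MFA2 was at 435, 652 and 767 FPKM in null 500G, 780, 702 and 596 FPKM in null 50G, 338, 296 and 410 FPKM in WT 500G and 640, 948 and 1077 FPKM in WT 50G libraries. The WT 500G libraries were the lowest 3 of the 12, with no overlap with any other group. The summed FPKM of both genes was 1600, 1201 and 1414 in null 500G, 1723, 1860 and 1712 in null 50G, 790, 1011 and 725 in WT 500G and 1382, 1718 and 1906 in WT 50G libraries, again with WT 500G lowest.

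Both transcripts come from very short coding regions, of 111 and 117 bases, and their spread between replicates was wide. The within-group SD of log2(FPKM + 1) was 0.42 for MFA1 and 0.33 for MFA2, against a median of 0.14 over all tested genes and 0.42 over the 18 tested genes under 150 bases with a mean of at least 100 FPKM. In null 500G replicate 1, MFA1 was the highest of its group and MFA2 the lowest.

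STE2 encodes the receptor of a cells for α-factor. It was at 45.4, 46.9 and 45.7 FPKM in null 500G, 53.0, 41.0 and 41.3 FPKM in null 50G, 29.6, 20.5 and 24.6 FPKM in WT 500G and 45.6, 39.6 and 35.5 FPKM in WT 50G libraries. The WT 500G libraries stood below all others, and the remaining 3 groups overlapped. STE6 encodes the ABC transporter that exports a-factor. Its FPKM was 12.7, 11.7 and 12.4 in null 500G, 16.1, 14.2 and 13.7 in null 50G, 10.04, 8.21 and 9.58 in WT 500G and 14.1, 13.7 and 13.7 in WT 50G libraries. The libraries at 500G lay below those at 50G in both strains, WT 500G lowest. BAR1 encodes the secreted protease that degrades α-factor. It was at 19.9, 20.3 and 17.8 FPKM in null 500G, 20.5, 21.4 and 21.1 FPKM in null 50G, 14.5, 9.52 and 12.9 FPKM in WT 500G and 19.9, 22.8 and 19.5 FPKM in WT 50G libraries. Again the WT 500G libraries were below all others.

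**Figure D2:**
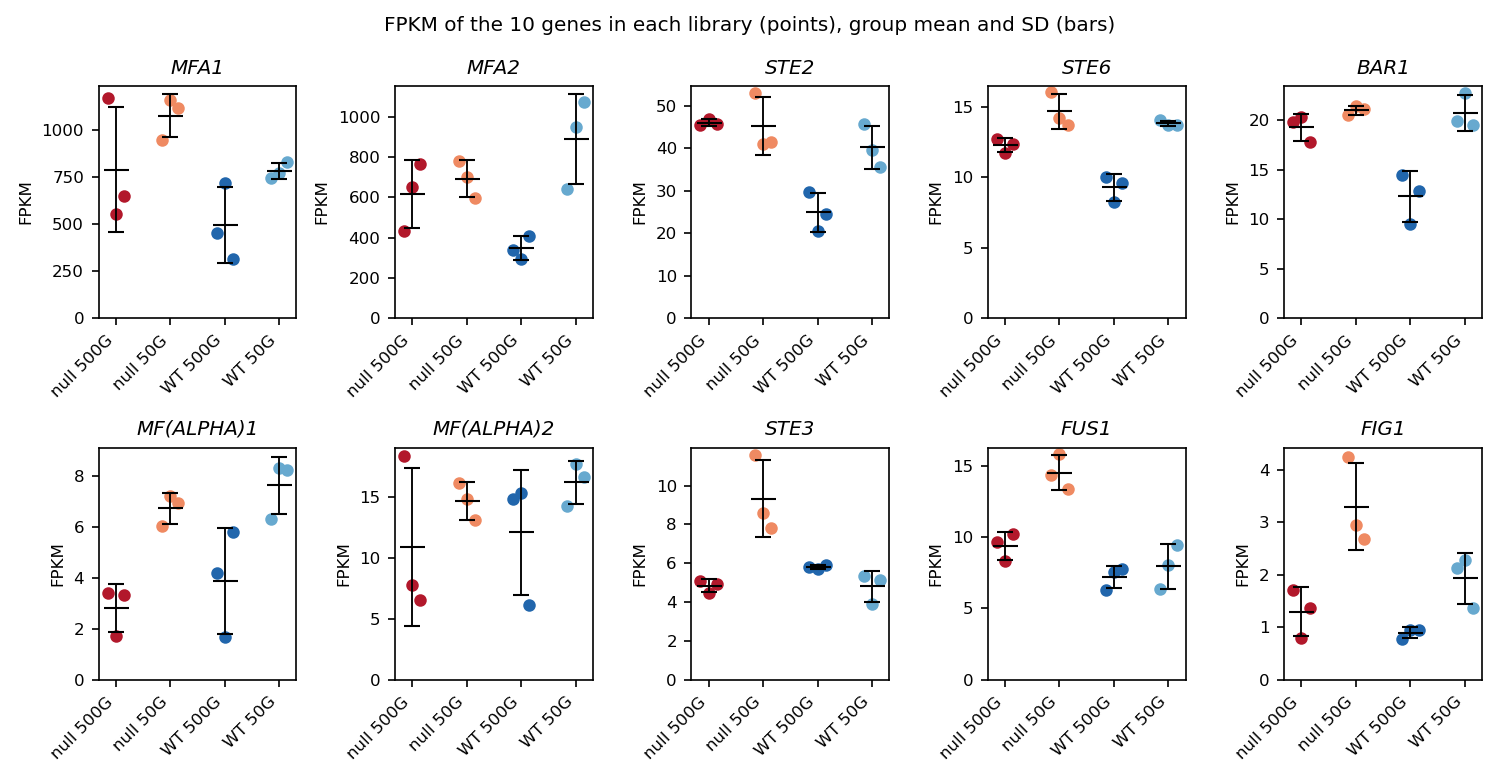
FPKM of each of the 10 genes in the 12 libraries (points), with the mean and SD of each group of 3 libraries (black bars), on linear axes that start at 0. In MFA2, STE2, STE6 and BAR1 the 3 WT 500G points lie below every point of the other groups, and in STE3, FUS1 and FIG1 the 3 null 50G points lie above every other point.

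With passage of WT cells, 4 of the 5 a-specific transcripts fell. Set against WT 50G, WT 500G cells had less MFA2 (log2 change -1.33 ± 0.24 SE, adjusted p = 0.001256), BAR1 (-0.73 ± 0.13, adjusted p = 0.001232), STE2 (-0.68 ± 0.14, adjusted p = 0.003112) and STE6 (-0.53 ± 0.09, adjusted p = 0.00112, limma with Benjamini-Hochberg adjustment over all tested genes). In bulk RNA, fewer cells with a transcript and less of it per cell cannot be told apart. The log2 change of MFA1 was -0.74 ± 0.30 and did not pass the test (adjusted p = 0.07422), but passed without null 500G replicate 1 (adjusted p = 0.03118) or WT 500G replicate 2 (-1.05, adjusted p = 0.01748). Of the 10 genes, 5 fell and none rose (the fifth being MF(ALPHA)1), where 40.6% of all tested genes were called, 21.4% higher and 19.2% lower. The a-specific list, made of these 5 with AGA2 and ASG7, had 5 of 7 genes lower and a median log2 change of -0.73, beside 0.0087 over all tested genes. ASG7, which encodes an inhibitor of receptor signalling, fell by 0.75 on the log2 scale (adjusted p = 7.835e-05), whereas AGA2, the binding subunit of a-agglutinin, did not pass the test and its libraries overlapped, at 147, 130 and 138 FPKM in WT 500G and 188, 151 and 144 FPKM in WT 50G. HMRA1 moved the other way and rose by a log2 change of 0.70 ± 0.16 (adjusted p = 0.005509), and MCM1 did not pass the test (-0.32 ± 0.18, adjusted p = 0.1832). Scaling every library to an equal FPKM sum moved the median of all genes to -0.34 in this comparison and added MFA1, FUS1 and FIG1 to the genes called lower.

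In ulp2 null cells 1 of the 5 a-specific members, STE6, passed the test between 500G and 50G, and 2 of the 7 genes of the a-specific list did, STE6 and ASG7. Of all tested genes, 54.1% were called in this comparison, 24.5% higher and 29.7% lower. STE6 fell by 0.24 on the log2 scale (SE 0.09), at the edge of the threshold (adjusted p = 0.04961), and it stayed called in 2 of the 12 fits that left out a library. The log2 changes were -0.52 ± 0.30 for MFA1, -0.19 ± 0.24 for MFA2, 0.04 ± 0.14 for STE2 and -0.12 ± 0.13 for BAR1, with adjusted p between 0.1713 and 0.8428. Scaling to equal FPKM sums, which moved the median of all genes to -0.33 here, called MFA1 (-0.81, adjusted p = 0.02574) and BAR1 (-0.39, adjusted p = 0.03344) lower as well, and without null 500G replicate 1 MFA1 passed too (-0.84, adjusted p = 0.0248). HMRA1 rose here too, by a log2 change of 0.70 (adjusted p = 0.004007), and ASG7 fell by 0.37 on the log2 scale (adjusted p = 0.003859).

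The change with passage differed between the strains for 3 of the 5 a-specific genes. In the test of that difference, null minus WT, the log2 values were 1.13 ± 0.33 for MFA2 (adjusted p = 0.0319), 0.72 ± 0.20 for STE2 (adjusted p = 0.02431) and 0.61 ± 0.18 for BAR1 (adjusted p = 0.03445), while MFA1 (0.22 ± 0.43, adjusted p = 0.7707) and STE6 (0.30 ± 0.13, adjusted p = 0.1399) did not pass. Together with STE3 these made 4 of the 10 genes, where 22.7% of all tested genes were called, 9.74% with a positive and 13.0% with a negative value. Leaving out a library lost the call in 8 of 12 fits for MFA2 (highest adjusted p 0.07628), in 7 for BAR1 (0.08512) and in 4 for STE2 (0.06237), and the direction stayed in all of them.

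At 500G, 3 of the 5 a-specific transcripts were higher in null than in WT cells. STE2 was higher by a log2 change of 0.87 ± 0.14 (adjusted p = 0.003639), BAR1 by 0.63 ± 0.13 (adjusted p = 0.01244) and STE6 by 0.37 ± 0.09 (adjusted p = 0.02843). MFA2 (0.80 ± 0.24, adjusted p = 0.05484) and MFA1 (0.67 ± 0.30, adjusted p = 0.1846) had values of the same sign that did not pass, although all 3 null libraries were above all 3 WT libraries for MFA2. ASG7 was higher as well (0.73 ± 0.09, adjusted p = 0.0005581). Thus 3 of the 10 genes were called, all higher, where 11.0% of all tested genes were called, 4.90% higher and 6.06% lower. The 3 were STE2, STE6 and BAR1, and of these the call was lost for STE6 without any of the 3 null 500G libraries or without WT 500G replicate 2 (adjusted p from 0.05544 to 0.09398) and for STE6 and BAR1 when the fit held only the groups compared.

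At 50G no a-specific gene among the 5 passed the test between null and WT cells, where 36.9% of all tested genes were called. The log2 changes, null over WT, were 0.45 ± 0.30 for MFA1, -0.33 ± 0.24 for MFA2, 0.16 ± 0.14 for STE2, 0.08 ± 0.09 for STE6 and 0.02 ± 0.13 for BAR1, with adjusted p between 0.2768 and 0.9188. In a fit of these 2 groups alone MFA1 passed at an adjusted p of 0.01256. ASG7 was higher in null cells by a log2 change of 0.35 ± 0.09 (adjusted p = 0.007848).

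**Figure D3:**
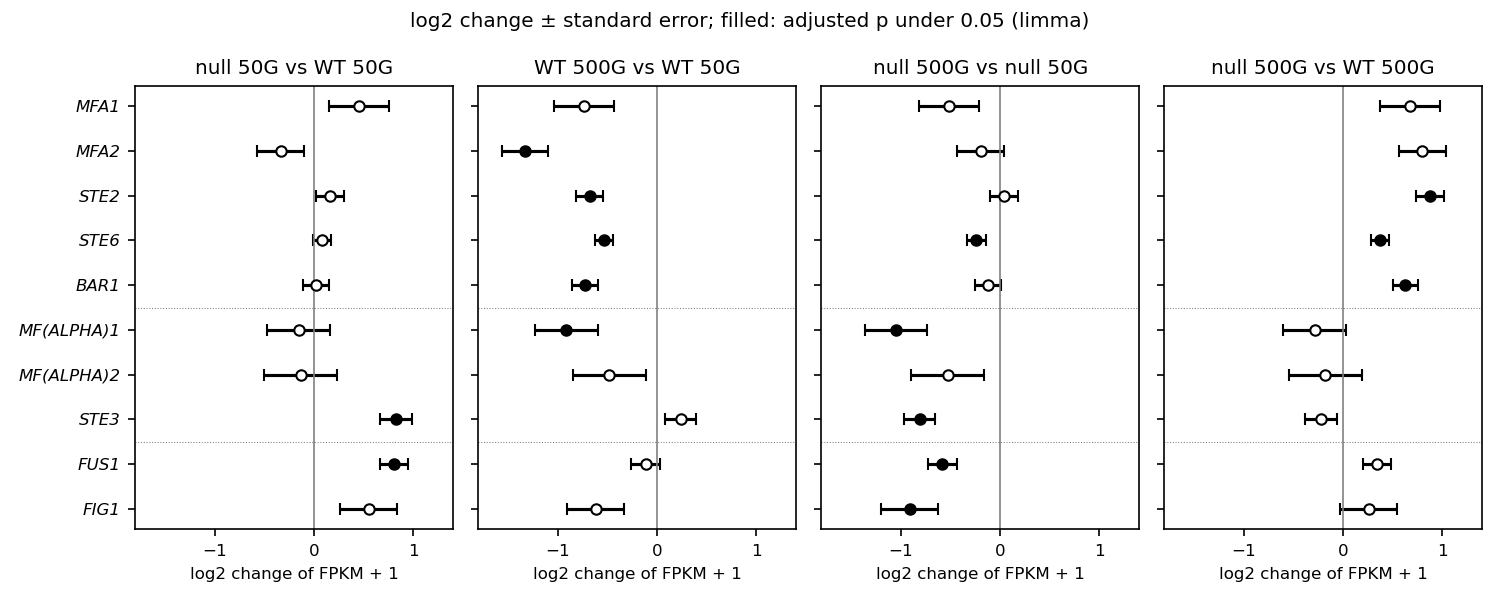
log2 change of FPKM + 1 with its standard error (horizontal bars) for the 10 genes in 4 comparisons, filled where the adjusted p was under 0.05. Dotted lines part a-specific, α-specific and pheromone-induced genes. The a-specific genes lie left of 0 in WT 500G against WT 50G and right of 0 in null 500G against WT 500G.

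The 3 α-specific genes among the 10 were at 1.67 to 18.4 FPKM over the 12 libraries. SAG1 and AFB1, also of the α-specific list, were at 23.3 to 32.9 and 11.6 to 78.2 FPKM. The a-specific STE6 and BAR1 were at 8.21 to 16.1 and 9.52 to 22.8 FPKM, whereas MFA1, MFA2 and AGA2 were at 130 FPKM or more. The 2 classes thus overlapped in level. MF(ALPHA)1 and MF(ALPHA)2 encode precursors of α-factor, the pheromone of α cells, and their median ranks were 6184 and 5542 of 7126 genes. MF(ALPHA)1 was at 3.40, 1.72 and 3.32 FPKM in null 500G, 6.02, 7.20 and 6.91 FPKM in null 50G, 4.18, 1.67 and 5.78 FPKM in WT 500G and 6.31, 8.31 and 8.23 FPKM in WT 50G libraries. All libraries at 500G lay below all at 50G, in each strain. It fell with passage by 1.05 on the log2 scale in null cells (SE 0.32, adjusted p = 0.01664) and fell by 0.91 in WT cells (SE 0.32, adjusted p = 0.03974). These calls were lost without null 500G replicate 2 (adjusted p = 0.06381) for the null cells and in 8 of 12 fits for the WT cells, among them the one without WT 500G replicate 2, in which the log2 change was -0.53 (adjusted p = 0.1234). Of the 45-base stretches of MF(ALPHA)1, 16.3% occur more than once, all of them within the gene itself, which repeats the α-factor sequence.

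MF(ALPHA)2 was at 18.4, 7.75 and 6.56 FPKM in null 500G, 16.1, 14.8 and 13.1 FPKM in null 50G, 14.8, 15.3 and 6.16 FPKM in WT 500G and 14.3, 17.7 and 16.6 FPKM in WT 50G libraries. The groups overlapped, with null 500G replicates 2 and 3 and WT 500G replicate 3 well below the rest, and no comparison passed the test, although null 500G against null 50G did without null 500G replicate 1 (log2 change -0.94, adjusted p = 0.0268). Its within-group SD of 0.51 on the log2 scale was the largest of the 10 genes.

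STE3 encodes the receptor of α cells for a-factor. It was at 5.10, 4.46 and 4.94 FPKM in null 500G, 11.6, 8.61 and 7.81 FPKM in null 50G, 5.80, 5.70 and 5.90 FPKM in WT 500G and 5.36, 3.91 and 5.12 FPKM in WT 50G libraries. The null 50G libraries stood above the other 9. STE3 was higher in null 50G than in WT 50G cells by a log2 change of 0.83 ± 0.16 (adjusted p = 0.001956) and fell by 0.81 on the log2 scale in null 500G against null 50G (SE 0.16, adjusted p = 0.001454). With passage of WT cells the log2 change was 0.24 ± 0.16 (adjusted p = 0.2529), and the difference between the strains in the change with passage was -1.05 ± 0.22 (adjusted p = 0.006534). These 3 calls held in each of the 12 fits that left out a library. At 500G null and WT cells did not pass the test (-0.22 ± 0.16, adjusted p = 0.403).

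The α-specific list also held SAG1, which encodes α-agglutinin, and AFB1, which encodes an a-factor barrier. AFB1 was at 17.1, 17.03 and 11.6 FPKM in null 500G, 63.1, 78.2 and 77.0 FPKM in null 50G, 19.6, 21.3 and 19.5 FPKM in WT 500G and 17.01, 18.2 and 19.1 FPKM in WT 50G libraries. It was thus high in null 50G alone, with a log2 change of 1.94 ± 0.14 over WT 50G (adjusted p = 2.668e-06) and of -2.20 ± 0.14 in null 500G against null 50G (adjusted p = 4.85e-07). SAG1 was higher in null cells by 0.28 at 50G (adjusted p = 0.005188) and by 0.35 at 500G (adjusted p = 0.006996) on the log2 scale. AFB1 lies on chromosome XII, which along with chromosome I is present in an extra copy in nascent ulp2 null cells by the account of the study. None of the 10 genes lies on chromosome I or XII. MATALPHA1 and HMLALPHA1 were at 0.390 to 1.17 FPKM in the null 50G libraries in which STE3 and AFB1 were high. The sequences of both α1 genes occur more than once in the genome, which leaves their levels uncertain. The part of any other cell type in these values was not tested.

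FUS1 and FIG1 are targets of the pheromone response that act in cell fusion: FUS1 encodes a membrane protein at the tip of the mating projection, and FIG1 a membrane protein needed for calcium uptake during mating. The promoter of FUS1 is shown because it holds more than 1 pheromone response element. The stretches at chrIII:71604-71633 and chrIII:71631-71660 of R64, on the plus strand like the gene, have the element in capitals.
FUS1 element a: ttggtgcgatgaTGAAACAaacatgaaacg
FUS1 element b: acgtctgtaattTGAAACAaataacgtaat
Promoters with at least 2 matches of TGAAACA made up 0.933% of all 6000, and 7 of the 16 promoters of the pheromone-induced list. Among the 10 genes 5 had at least 2 matches, MFA2, STE2, BAR1 and MF(ALPHA)2 as well as FUS1.

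FUS1 was at 9.62, 8.32 and 10.2 FPKM in null 500G, 14.4, 15.8 and 13.4 FPKM in null 50G, 6.29, 7.52 and 7.79 FPKM in WT 500G and 6.35, 8.002 and 9.46 FPKM in WT 50G libraries. The null 50G libraries were the highest, and the null 500G libraries still lay above all WT 500G libraries. FUS1 was higher in null 50G than in WT 50G cells by a log2 change of 0.81 ± 0.14 (adjusted p = 0.001188) and fell by 0.58 on the log2 scale in null 500G against null 50G (SE 0.14, adjusted p = 0.005934). Both calls held in each of the 12 fits that left out a library. The log2 change was 0.34 ± 0.14 between null and WT cells at 500G (adjusted p = 0.159) and -0.11 ± 0.14 with passage of WT cells (adjusted p = 0.5542). FIG1 was near the lower limit, at 1.71, 0.796 and 1.37 FPKM in null 500G, 4.25, 2.96 and 2.69 FPKM in null 50G, 0.768, 0.953 and 0.947 FPKM in WT 500G and 2.13, 2.28 and 1.37 FPKM in WT 50G libraries. As for FUS1, the null 50G libraries stood above all others. FIG1 fell in null cells with passage by 0.91 on the log2 scale (SE 0.29, adjusted p = 0.02082), a call lost without null 50G replicate 1 (adjusted p = 0.08006) or null 500G replicate 2 (adjusted p = 0.06803). Its log2 changes of 0.55 ± 0.29 in null 50G over WT 50G (adjusted p = 0.1629) and -0.62 ± 0.29 with passage of WT cells (adjusted p = 0.1095) did not pass. The WT change depended on the setting: it passed with no filter on low values, no variance trend, only the groups compared or equal FPKM sums (adjusted p from 0.02274 to 0.04246), and a pseudocount of 0.1 moved it to -1.01 (adjusted p = 0.05488). The difference at 50G passed with no variance trend (adjusted p = 0.03898).

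Counted over the 10 genes, 2 were called between null 50G and WT 50G (STE3 and FUS1, both higher), where 36.9% of all tested genes were called, 18.7% higher and 18.1% lower. Between null 500G and null 50G, 5 were called (STE6, MF(ALPHA)1, STE3, FUS1 and FIG1, all lower), where 54.1% of all tested genes were called, 24.5% higher and 29.7% lower. Counted in either direction, neither share of calls exceeded that of all tested genes.

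The pheromone-induced list of 16 genes, which includes FUS1 and FIG1, had 7 genes higher and none lower in null 50G against WT 50G cells, where 18.7% of all tested genes were higher and 18.1% lower, with a median log2 change of 0.35 beside -0.0163 over all tested genes. SST2, which encodes the regulator that speeds GTP hydrolysis by the pheromone G protein, had the largest log2 change in the list (1.21 ± 0.08, adjusted p = 1.412e-06) and lies on chromosome XII. PRM5, which encodes a membrane protein that also responds to cell wall stress, rose by 1.05 ± 0.07 (adjusted p = 2.8e-06), and FUS2, which acts in cell fusion, rose by 0.85 ± 0.16 (adjusted p = 0.001657). Without SST2, the only gene of the list on chromosome I or XII, 6 of 15 genes were higher with a median of 0.34. In null 500G against null 50G, 9 of the 16 fell and 1 rose, with a median log2 change of -0.37 beside -0.0472 over all tested genes, of which 29.7% were lower and 24.5% higher. Between null 500G and WT 500G cells, 3 were higher (SST2, 0.84 ± 0.08, adjusted p = 0.0001314; FUS2, 0.68 ± 0.16, adjusted p = 0.02158; PRM3, 0.65, adjusted p = 0.03389) and none lower, with a median of 0.16 beside -0.0345 over all tested genes, of which 4.90% were higher. With passage of WT cells, 2 rose and 3 fell, where 21.4% of all tested genes were higher and 19.2% lower.

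**Figure D4:**
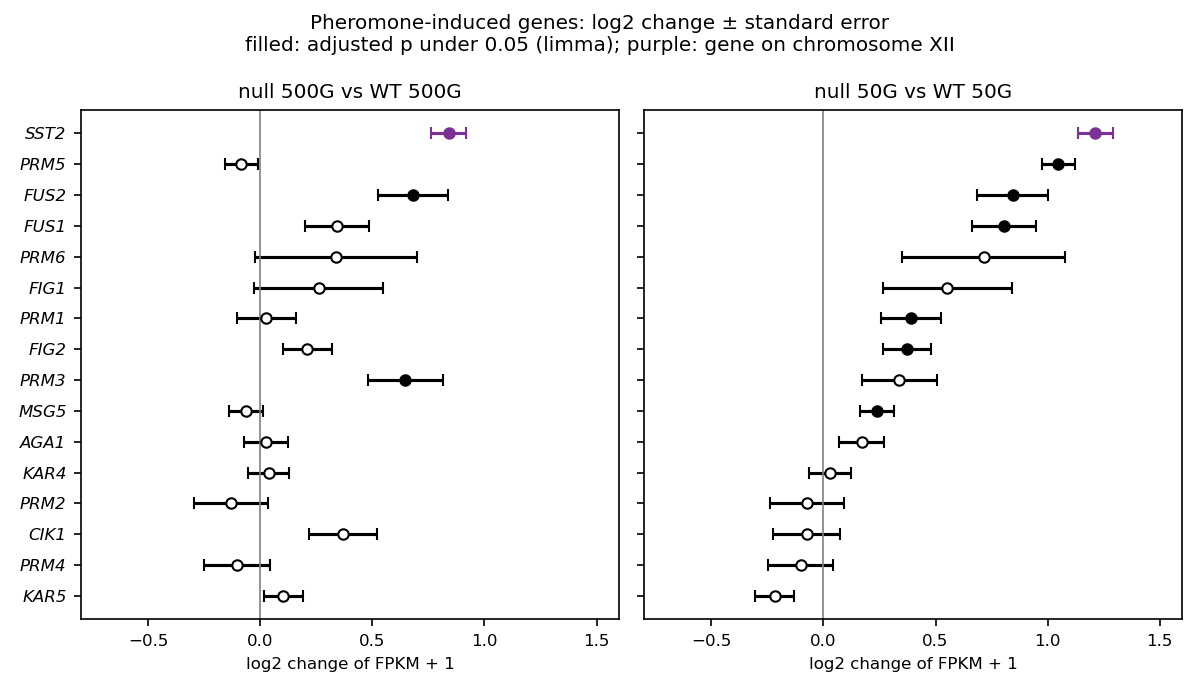
log2 change of FPKM + 1 with its standard error for the 16 pheromone-induced genes in null 500G against WT 500G (left) and null 50G against WT 50G (right), filled where the adjusted p was under 0.05, with the gene on chromosome XII in purple. At 50G 7 genes are filled, all right of 0, and at 500G 3 are.

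Among genes of the signalling pathway the calls ran in both directions at 50G. With passage of null cells more fell than rose, in part on chromosomes I and XII. Of 19 signalling genes, 3 were higher and 4 lower in null 50G against WT 50G cells, with a median log2 change of 0.0029, a number of calls close to the 36.9% of all tested genes, and 1 was higher and 4 lower among the 16 that lie outside chromosomes I and XII. STE12, the transcription factor of the pathway, was the 1 higher of these and was at 29.5, 25.3 and 27.5 FPKM in null 50G and 15.5, 17.9 and 16.4 FPKM in WT 50G libraries (log2 change 0.69 ± 0.14, adjusted p = 0.002529). The groups did not overlap. CDC24 on chromosome I (0.67 ± 0.09, adjusted p = 0.0001682) and STE11 on chromosome XII (0.56 ± 0.06, adjusted p = 5.586e-05) were higher too. GPA1, the Gα subunit that holds the pathway off until pheromone binds the receptor, was lower (-0.44 ± 0.07, adjusted p = 0.0004702), as was the MAP kinase gene FUS3 (-0.38 ± 0.08, adjusted p = 0.004075). With passage of WT cells 3 signalling genes rose and 3 fell, where 40.6% of all tested genes were called, among those that fell FAR1, which arrests the cell cycle in response to pheromone (-0.97 ± 0.09, adjusted p = 1.7e-05), and the MAP kinase gene KSS1 (-0.67 ± 0.10, adjusted p = 0.0003808). In null 500G against null 50G, 1 of the 19 rose and 7 fell, where 24.5% of all tested genes were higher and 29.7% lower. Among the 16 outside chromosomes I and XII, 1 rose and 4 fell, a share close to that of all tested genes. CDC24 fell by 0.90 on the log2 scale (adjusted p = 1.225e-05) and FAR1 by 0.66 (adjusted p = 0.0001061).

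Of 11 haploid-specific genes, which are off in a/α diploids, 2 were higher and 3 lower in null 50G against WT 50G cells, where 18.7% of all tested genes were higher and 18.1% lower. RME1, a repressor of entry into meiosis, was at 74.1, 99.0 and 98.9 FPKM in null 50G and 173, 171 and 178 FPKM in WT 50G libraries (log2 change -0.94 ± 0.11, adjusted p = 5.845e-05). IME1, the master activator of meiosis, was at 167 to 221 FPKM in null 500G, 94.9 to 112 FPKM in null 50G, 214 to 260 FPKM in WT 500G and 72.9 to 81.7 FPKM in WT 50G libraries, higher at 500G in both strains. IME4, chosen with IME1 as a marker of a/α diploids, was at 59.7 to 75.5 FPKM over the 12 libraries. It passed the test in no comparison (limma adjusted p from 0.07004 to 0.8652). Of 10 genes that process pheromone precursors, 1 was higher and 2 lower in null 50G against WT 50G, against the same shares, and 3 fell and none rose with passage of WT cells, where 19.2% of all tested genes were lower. RCE1, which encodes a protease that trims the a-factor precursor, fell by 1.08 on the log2 scale in null 500G against null 50G (adjusted p = 0.004362) and fell by 0.97 in WT 500G against WT 50G (adjusted p = 0.01116).

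Across the 12 libraries, the 3 a-specific genes STE2, STE6 and BAR1 varied together, with Pearson correlations of log2(FPKM + 1) of 0.87 for STE2 with STE6, 0.89 for STE2 with BAR1 and 0.92 for STE6 with BAR1. MFA2 correlated with them at 0.66 to 0.81 and MFA1 at 0.52 to 0.65. STE3 correlated with FUS1 at 0.72 and with STE2 at 0.18. High values were not limited to genes of 1 class: FIG1 correlated with STE6 at 0.82 and with MFA1 at 0.72. Among all tested genes, those most like each member were HXT4 (0.98) and CRH1 (0.97) for STE6, MTO1 (0.96) and SCW10 (0.93) for BAR1, NCE103 (0.95) and PHO90 (0.94) for STE2, ALK2 and SWE1 (both 0.92) for MFA2, YPT6 and YHR054C (both 0.97) for STE3, PAU7 and NBP1 (both 0.95) for FUS1 and RTA1 (0.96) and VTH2 (0.95) for FIG1. The closest genes were FYV4 and BLS1 (both 0.86) for MFA1, DIT2 and RSC9 (both 0.91) for MF(ALPHA)1 and ALG12 and YEL032C-A (both 0.91) for MF(ALPHA)2. These values are descriptions over 12 libraries that share 4 groups, and the best of 6572 genes is high by selection.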

How the data were processed

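The authors trimmed the strand-specific TruSeq reads, aligned them with TopHat2 2.1.1 to the R64 reference, kept reads that mapped to 1 place and computed expression with Cuffdiff of Cufflinks 2.2.1. The labels name polyA RNA as the molecule but purified total RNA as the input of the libraries, so the selection made is unclear. The deposited values were FPKM for 7126 genes in 12 libraries. Their scaling between libraries is not given in the sources used here, and no counts or depths were used. In 66 pairs of libraries at most 11.5% of the values under 3 FPKM shared a ratio. This check pooled different genes, so it cannot show whether low values fall at steps of 1 read. MATALPHA1 and HMLALPHA1 were at 0.333 and 0.667 FPKM in WT 50G replicate 1 and at 0.914 and 0.305 FPKM in null 500G replicate 3. The lowest values may thus rest on few reads. Of the gene identifiers, 6048 matched the RefSeq annotation by systematic name, 31 by symbol and 1047 not at all.

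Values were tested as log2(FPKM + 1), which understates changes of low genes, in limma 3.58.1 (R 4.3.3) with empirical Bayes and a trend, the 4 groups in 1 fit and a threshold of 0.05 on the p adjusted over 6572 genes (two-sided). Fold changes are differences of group means on that scale. The fit was tested on simulated data. The genes and lists were chosen with earlier results of these data known. All 10 genes are reported, along with the genes of the a-specific, α-specific and mating-type lists. Of each other list and comparison, at most 3 genes with the largest change past the threshold are named. GPA1 and FUS3, the signalling genes with the largest decreases past the threshold in null 50G against WT 50G, are named as well. STE12, IME1, IME4 and MCM1 were named for their roles, and TRP1 and AKR1 after their values were seen. The 2 genes most correlated with each member are also given. Alternatives were another pseudocount, filter, scaling or variance model, a fit of the compared groups only, a replicate block and leaving out each library. Sequences were read with Python 3.11.15 from the RefSeq R64 genome.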

Additional observations from a re-analysis of the deposited data

Results flagged for a closer look

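For 4 of the 10 genes the change with passage differed between ulp2 null and WT cells by the test of the difference itself, where 22.7% of all tested genes were called. MFA2, STE2 and BAR1 had values of 1.13, 0.72 and 0.61 on the log2 scale (null minus WT, limma adjusted p = 0.0319, 0.02431 and 0.03445), and for each of them the WT 500G libraries were the lowest 3 of the 12. STE3 had -1.05 (adjusted p = 0.006534), and its null 50G libraries were the highest 3. Of the 12 fits that left out a library, the call held in 4 for MFA2, 8 for STE2, 5 for BAR1 and 12 for STE3. The FPKM sum also differed between groups, and with equal FPKM sums the values stayed called, at 1.21 for MFA2, 0.79 for STE2, 0.67 for BAR1 and -0.99 for STE3 (adjusted p = 0.02921, 0.01941, 0.03589 and 0.01184). TRP1 and genes of chromosome XII differed between groups too, and their part in these differences was not tested.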

How the results depend on the processing

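No member called in the analysis as reported changed direction under any alternative. With a mean FPKM of at least 10 required, 6 of the 10 genes remained in the test (FUS1, STE3, MF(ALPHA)1 and FIG1 being below it), and 0 were called between null 50G and WT 50G and 0 between null 500G and null 50G. A fit of the compared groups only left 1 call between null 500G and WT 500G. Scaling to equal FPKM sums gave 8 calls (5 as reported) between WT 500G and WT 50G and 7 (5 as reported) between null 500G and null 50G, all lower, and moved the median log2 change of all genes to -0.34 and -0.33 there. It turned the sign of STE3 in WT 500G against WT 50G (-0.0671), of STE2 in null 500G against null 50G (-0.244) and of MF(ALPHA)2 in the difference between strains (0.0316).

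Without each library in turn, calls numbered 2 between null 50G and WT 50G, 4 to 6 between WT 500G and WT 50G, 2 (without null 500G replicate 2) to 6 between null 500G and null 50G (3 without null 50G replicate 1), 2 to 4 between null 500G and WT 500G, and 1 to 4 in the difference between strains (1 without null 50G replicate 2 or 3 or null 500G replicate 2, and 2 without WT 50G replicate 1 or 2). Values near 0 that changed sign in these fits ranged from -0.0186 to 0.0884 for BAR1 in null 50G against WT 50G, -0.248 to 0.0068 for FUS1 in WT 500G against WT 50G, -0.0248 to 0.156 for STE2 and -0.37 to 0.0385 for MFA2 in null 500G against null 50G, and -0.67 to 0.002 for MF(ALPHA)1 and -0.594 to 0.0849 for MF(ALPHA)2 in null 500G against WT 500G. In the difference between strains they ranged from -0.101 to 0.528 for MFA1, -0.516 to 0.156 for MF(ALPHA)1 and -0.461 to 0.219 for MF(ALPHA)2. The cause was not tested. Over the called results, 133 of 140 values stayed called under the other alternatives and 184 of 228 without a library.

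With the replicate number as a block, MFA2 passed between null 500G and WT 500G (0.80, adjusted p = 0.02998), which made 4 calls there, and the replicate block changed no other call. Over all tested genes, deviations of samples of the same number correlated at -0.066 to 0.157, and those of different numbers at -0.15 to 0.155. Single genes did move with the number: replicate 1 of every group was the lowest for MCM1 and the highest for AKR1. How many genes did so was not counted. The main fit did not take the numbers to pair the libraries.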
